A study of Mus musculus with 8 samples.

Results

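The 9 genes described here are the natriuretic peptide gene Nppc, its receptor genes Npr1, Npr2 and Npr3, the oocyte cAMP genes Gpr3 and Pde3a, and the meiotic kinase control genes Wee2, Cdc25b and Mos. They were chosen by name from the 55157 genes of the deposited table, and each name matched 1 gene. Messenger RNA was measured in follicles of morphological types 7 to 8, isolated from ovaries of Kunming mice (an outbred stock) on postnatal day 21. All mice had received PMSG, a gonadotropin that acts like follicle-stimulating hormone, and RNA was taken 24 hours later. The control group was injected with PMSG and normal saline and the melatonin group with PMSG and melatonin, with 4 libraries in each. The labels do not say whether the libraries of a group came from separate mice or pools, so the spread between them may be technical in part.

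A fully grown mouse oocyte waits in prophase of meiosis until luteinizing hormone arrives. Granulosa cells make C-type natriuretic peptide from Nppc, and its receptor NPR2 makes cyclic GMP, which passes through gap junctions into the oocyte and inhibits the phosphodiesterase PDE3A. The oocyte's own cyclic AMP, kept up by the receptor GPR3, is thereby spared and holds the kinase CDK1 inactive, with WEE2 as a brake on CDK1 and CDC25B as its activator. NPR1 is the receptor for atrial and B-type natriuretic peptides, NPR3 clears natriuretic peptides, and MOS is the kinase that starts the MAP kinase cascade of the maturing oocyte.

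RefSeq start sites (GRCm38.p6, the mm10 assembly) were available for 7 of the 9 members. The 250 bases before the start of 4 members are shown. Nppc and Npr2 are the ligand and receptor on which the granulosa side of the pathway rests. Gpr3 and Wee2 varied with the summed oocyte markers of the libraries, as did Pde3a and Mos, which had no RefSeq start site. Whether the sequences bear on that variation was not tested. Capitals mark TGACATCA, a cyclic-AMP-response-element-like motif, in Nppc (chr1:86670574-86670823, minus strand), the E-box CANNTG in Npr2 (chr4:43631685-43631934, plus strand) and in Wee2 (chr6:40442613-40442862, plus strand), and the GC box GGGCGG in Gpr3 (chr4:133212537-133212786, minus strand), each searched on both strands.
Nppc: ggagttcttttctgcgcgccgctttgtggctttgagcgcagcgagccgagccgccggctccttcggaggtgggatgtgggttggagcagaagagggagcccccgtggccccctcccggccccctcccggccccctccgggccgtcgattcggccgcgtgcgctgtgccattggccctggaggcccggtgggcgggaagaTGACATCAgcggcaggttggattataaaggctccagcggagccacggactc
Npr2: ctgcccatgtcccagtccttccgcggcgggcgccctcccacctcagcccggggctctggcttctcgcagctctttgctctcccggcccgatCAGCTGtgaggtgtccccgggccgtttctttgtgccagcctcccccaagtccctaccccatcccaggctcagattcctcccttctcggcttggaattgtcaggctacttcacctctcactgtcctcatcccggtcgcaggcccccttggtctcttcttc
Gpr3: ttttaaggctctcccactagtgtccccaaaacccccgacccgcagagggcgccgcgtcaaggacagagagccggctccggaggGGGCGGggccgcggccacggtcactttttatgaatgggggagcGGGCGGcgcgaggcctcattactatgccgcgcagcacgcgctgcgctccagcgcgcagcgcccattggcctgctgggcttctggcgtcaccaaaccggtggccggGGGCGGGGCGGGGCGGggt
Wee2: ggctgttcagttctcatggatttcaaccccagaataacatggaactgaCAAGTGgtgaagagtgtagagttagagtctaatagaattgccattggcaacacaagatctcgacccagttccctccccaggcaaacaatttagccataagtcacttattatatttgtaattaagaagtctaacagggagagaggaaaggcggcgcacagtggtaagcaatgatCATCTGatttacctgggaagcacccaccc

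The Nppc window held 1 TGACATCA, starting at -51 from the start site, and 1 TATAAA at -29. TGACATCA was present in 2.93% of the 32851 RefSeq windows of this length and TATAAA in 12.4%. The Gpr3 window held 5 GC boxes, some overlapping each other, where 32.7% of windows held at least 1. The share of windows with 5 was not counted, and the windows of Cdc25b and Npr1 held 4 and 2. Other motifs than the marked ones were also searched in each window. An E-box was found once in the Npr2 window and at 2 places in the Wee2 window, and 66.2% of windows held one. These are matches of letters in a window. The Wee2 window lies inside the GENCODE gene, downstream of its annotated start.

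The implied depth, the library total by which the FPKM values appear to have been scaled, was 17451116 to 23649154 fragments. Counts for the members came out as whole fragments within 0.02 of a fragment in every library. All 16 oocyte markers and all 12 granulosa markers examined were present at a mean of at least 1 FPKM. FPKM is the number of fragments scaled to exon length and to a library total, so it can be compared between genes. The summed granulosa markers lay between 8435 and 10760 FPKM in the controls and between 7192 and 8127 FPKM with melatonin, with no overlap. Surface epithelium markers also did not overlap (50.5 to 78.9 against 43.3 to 48.4 FPKM). The summed oocyte markers overlapped, at 467 to 727 and 457 to 588 FPKM, as did the other 8 lists of cell type markers. Smooth muscle, endothelial, leukocyte and surface epithelium lists had 7 markers under 1 FPKM in every library (Tagln, Des, Tek, Emcn, Tie1, Ptprc and Muc16), but none was at 0 in all libraries. In RNA from whole follicles, fewer cells of a type and less RNA per cell cannot be told apart.

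None of the 9 genes differed between melatonin and control past the threshold. Of the 9, 8 averaged at least 1 FPKM and were tested. limma on log2(FPKM + 1) called 0 of these 8 at an adjusted p under 0.05, and 0% of the 14738 genes tested were called (2821 had an unadjusted p under 0.05). The count of calls with limma-voom on recovered fragments was likewise 0, and 2740 genes then had an unadjusted p below that level. At an unadjusted p under 0.05, 1 member was lower, Npr2, and no member was higher, where 9.74% of all tested genes were lower and 9.4% higher. All 8 had a negative log2 fold change (median -0.12), against 52.5% of all tested genes (median -0.01). Some members varied together over the 8 libraries, such as Gpr3 with Pde3a (Pearson's r = 0.947) and with Wee2 (r = 0.927). Their signs are therefore not separate observations. In none of the 9 genes were the 4 melatonin values all above or all below the 4 control values, as they were in 11.7% of tested genes.

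**Figure D1:**
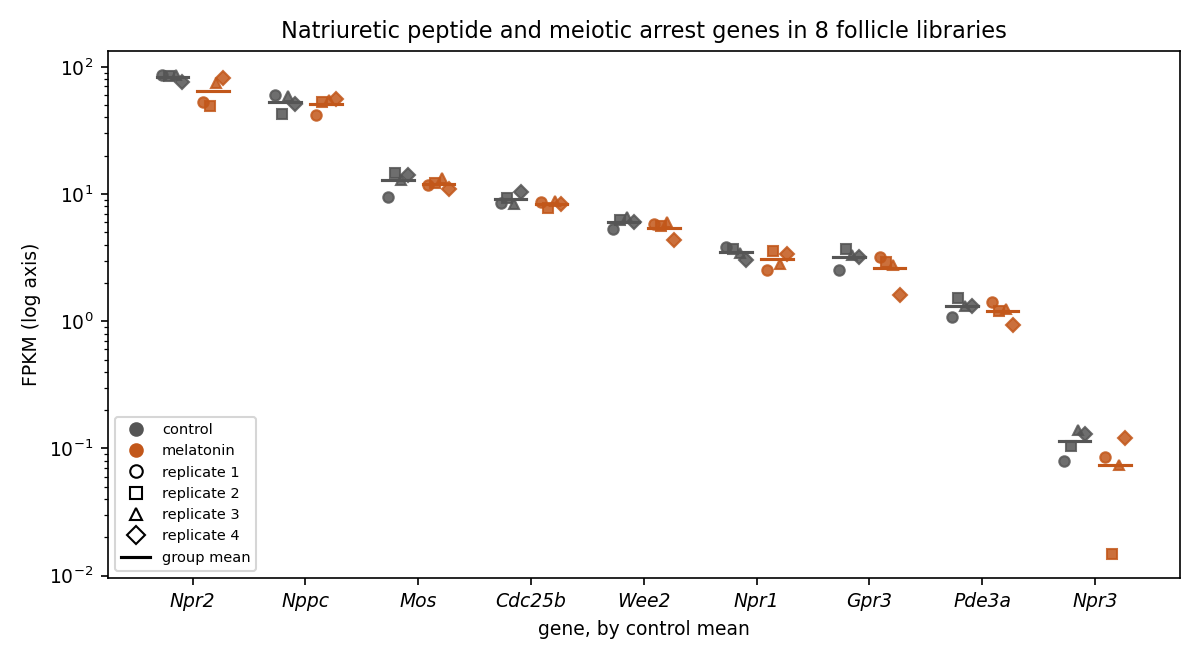
FPKM (log axis) of the 9 genes in the 4 control (grey) and 4 melatonin (orange) libraries, ordered by control mean, with a symbol for each replicate number and a bar at the group mean. Npr2 and Nppc lie above all other members, Npr3 lies near 0.1 FPKM, and the groups overlap in every gene.

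The levels of the 9 genes spanned a wide range. In control libraries the order by mean FPKM was Npr2, Nppc, Mos, Cdc25b, Wee2, Npr1, Gpr3, Pde3a and Npr3. The ranges of Mos and Cdc25b overlapped, as did those of Npr1 and Gpr3, and all other neighbours in the order were separated in the 4 control libraries. In melatonin libraries the order was the same. There the ranges of Npr2 and Nppc overlapped, with Nppc above Npr2 in 1 library, those of Npr1 and Gpr3 overlapped again, and those of Mos and Cdc25b did not.

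Npr2 (chromosome 4, 43631935 to 43651244, plus strand, mm10), the receptor for C-type natriuretic peptide, was the most abundant member, above 96.3% of tested genes by its mean. It was at 86.6, 83.9, 85.8 and 75.9 FPKM in control replicates 1 to 4. In melatonin replicates 1 to 4 it was at 52.6, 49.2, 75.1 and 81.0 FPKM. Melatonin replicates 1 and 2 were thus well below every control, replicate 3 was just under the lowest control, and replicate 4 lay inside the control range. The control mean was 83.1 ± 4.90 FPKM and the melatonin mean 64.5 ± 15.9 FPKM (SD, n = 4 each), or 77.6% of control. The log2 fold change was -0.39 ± 0.16 (SE, 95% interval -0.75 to -0.03; limma, unadjusted p = 0.036, adjusted p = 0.233). These values rested on 4944 to 8823 fragments per library, so counting error is small beside the spread between melatonin libraries. Leaving out melatonin replicate 2 gave -0.27, and leaving out melatonin replicate 4 gave -0.51.

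The granulosa marker sum was also lower with melatonin, and Inha, with a mean of 6021 FPKM, made up most of it. Of the 12 markers 11 had a negative log2 fold change and Nr5a2 a positive one (0.09), and 4 had an unadjusted p under 0.05 (Fshr, Hsd17b1, Bex2 and Inhbb). None passed the adjusted threshold. The mural and cumulus granulosa sums overlapped between the groups, the mural sum only through melatonin replicate 3 (363.4 FPKM). In melatonin replicates 1, 2 and 4 the mural sum was 188.6, 171.9 and 238.7 FPKM, below every control (318.7 to 616.9 FPKM). Its median was 414.1 FPKM in control and 213.7 FPKM in melatonin libraries, against 653.5 and 564.1 FPKM for the cumulus sum. The mural markers had log2 fold changes of -1.16 (Cyp19a1), -1.06 (Inhba), -0.60 (Lhcgr), -0.86 (Cyp11a1) and -0.14 (Nr4a1). As a percentage of the 12-marker sum, Npr2 was at 0.875 ± 0.055 in control and 0.835 ± 0.192 in melatonin libraries (SD, n = 4 each), from 0.627 in melatonin replicate 2 to 1.06 in melatonin replicate 4. The part of these markers in the Npr2 difference was not tested. The antisense gene Gm12473 lies on the other strand of Npr2, with 266 bases of shared exon that make up 5.7% of the Npr2 exons and 45.9% of its own. It was at 77.0 ± 7.90 FPKM in control libraries and 57.0 ± 13.8 FPKM with melatonin, and was lowest in melatonin replicates 1 (42.9) and 2 (48.0), as Npr2 was. Whether counting used strand is not given in the sources used here, and without strand the reads of the shared stretch cannot be told apart.

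**Figure D2:**
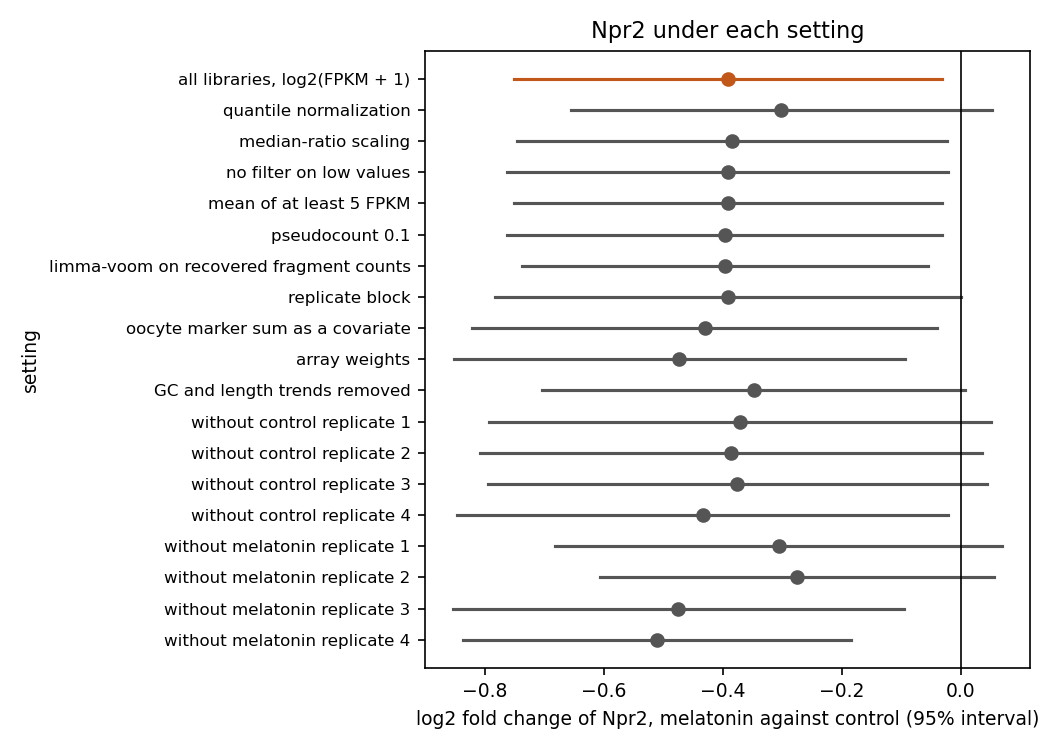
Log2 fold change of Npr2 (melatonin against control) with its 95% interval under the reported fit (orange) and each alternative setting (grey). Every estimate lies below 0, between -0.51 and -0.27, and several intervals reach past 0.

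Nppc (chromosome 1, 86666291 to 86670571, minus strand), which encodes C-type natriuretic peptide, was close in mean between the groups. Control replicates 1 to 4 were at 59.98, 42.5, 59.2 and 50.8 FPKM. Melatonin replicates 1 to 4 were at 42.0, 53.3, 54.4 and 55.7 FPKM. Control replicate 2 and melatonin replicate 1 were the low libraries, and the other 6 lay between 50.8 and 59.98 FPKM. The means were 53.1 ± 8.21 and 51.4 ± 6.29 FPKM (SD, n = 4 each), a log2 fold change of -0.04 ± 0.13 (SE; limma adjusted p = 0.879). The 95% interval of that difference ran from -0.33 to 0.25, which still allows a change of either sign. Its sign turned with the setting, from -0.14 without control replicate 2 to 0.05 without melatonin replicate 1. Relative to its ligand, Npr2 was at 144% to 198% of the Nppc level in control and at 92.3% to 146% in melatonin libraries, so the ranges of this ratio met. As a percentage of the granulosa marker sum, which was itself lower with melatonin, Nppc was higher in mean with melatonin. It was at 0.557 ± 0.064 in control and 0.665 ± 0.059 in melatonin libraries (SD, n = 4 each), with overlap.

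Npr1 (chromosome 3, 90450591 to 90465866, minus strand), the receptor of the cardiac natriuretic peptides, was far below Npr2. It was at 3.82, 3.73, 3.44 and 3.05 FPKM in control and 2.53, 3.55, 2.82 and 3.38 FPKM with melatonin (replicates 1 to 4). Melatonin replicates 1 and 3 were below every control, and replicates 2 and 4 lay inside the control range. Its log2 fold change was -0.15 ± 0.10 (SE; limma adjusted p = 0.434), or -0.09 if melatonin replicate 1 was left out. The genes of its ligands, Nppa and Nppb, were not tested, with control means of 0.056 and 0.047 FPKM.

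Npr3 (chromosome 15, 11839896 to 11907287, minus strand), the clearance receptor, was barely detected and did not reach the 1 FPKM filter. Its counts were 15, 17, 29 and 27 fragments in control and 19, 3, 13 and 24 fragments in melatonin replicates 1 to 4. These correspond to 0.0798 to 0.140 FPKM and 0.0148 to 0.120 FPKM. In a fit without the filter its log2 fold change was -0.05 (limma adjusted p = 0.632), on a scale that compresses values this low.

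Gpr3 (chromosome 4, 133209340 to 133212536, minus strand), the receptor that keeps cyclic AMP high in the oocyte, was at 2.52, 3.71, 3.29 and 3.22 FPKM in control replicates 1 to 4. In melatonin replicates 1 to 4 it was at 3.17, 2.91, 2.78 and 1.61 FPKM, with melatonin replicate 4 lowest by some distance on 94 fragments. For Gpr3 the log2 fold change was -0.22 ± 0.16 (SE, 95% interval -0.58 to 0.13; limma adjusted p = 0.46). Leaving out melatonin replicate 4 made it -0.08. Cd164l2, on the opposite strand, shares 204 bases of exon with Gpr3 (7.46% of the Gpr3 exons). It was at 7.69 ± 1.08 and 8.07 ± 1.13 FPKM (SD, n = 4 each), and its lowest values were likewise in melatonin replicate 4 (6.40) and control replicate 1 (6.43). Gpr12, a related receptor gene chosen here after its values were seen, was below the filter, with means of 0.00904 FPKM in control libraries and 0.0194 FPKM with melatonin.

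Pde3a (chromosome 6, 141249269 to 141507448, plus strand), the oocyte phosphodiesterase that cyclic GMP inhibits, was just above the filter. Control replicates 1 to 4 were at 1.09, 1.53, 1.31 and 1.32 FPKM, and melatonin replicates 1 to 4 were at 1.41, 1.20, 1.25 and 0.940 FPKM. The highest value was in control replicate 2 and the lowest in melatonin replicate 4. Its exons are long, so each value rested on 255 to 424 fragments despite the low level. Between the groups the log2 fold change was -0.07 ± 0.11 (SE; limma adjusted p = 0.736), or -0.01 if melatonin replicate 4 was left out. It was -0.03 without control replicate 2, and -0.12 both without control replicate 1 and without melatonin replicate 1. Removing GC content and length trends made it -0.17 (limma adjusted p = 0.457, in a range of 0.457 to 0.962 over 17 alternatives).

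Wee2 (chromosome 6, 40439088 to 40466813, plus strand), the oocyte kinase that phosphorylates CDK1 to keep it inactive, was at 5.30, 6.26, 6.65 and 5.99 FPKM in control replicates 1 to 4. Melatonin replicates 1 to 4 were at 5.76, 5.64, 6.04 and 4.34 FPKM. Apart from melatonin replicate 4, the melatonin values lay inside the control range. Wee2 had a log2 fold change of -0.13 ± 0.10 (SE; limma adjusted p = 0.493), which became -0.05 when melatonin replicate 4 was left out.

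Cdc25b (chromosome 2, 131186949 to 131198497, plus strand), the phosphatase that activates CDK1, had a narrower range with melatonin than in the controls. It was at 8.55, 9.38, 8.39 and 10.3 FPKM in control and 8.64, 7.83, 8.83 and 8.38 FPKM in melatonin replicates 1 to 4. Control replicate 4 was the highest library and melatonin replicate 2 the lowest. The log2 fold change was -0.10 ± 0.07 (SE, 95% interval -0.27 to 0.06; limma adjusted p = 0.445), and -0.05 after GC content and length trends were removed (limma adjusted p = 0.754, in a range of 0.359 to 0.754 over 18 alternatives). Leaving out control replicate 4 likewise gave -0.05. Spef1 shares 92 bases of exon with it on the other strand, which is 2.47% of the Cdc25b exons.

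Mos (chromosome 4, 3870657 to 3872105, minus strand), a maternal messenger that is stored until maturation, was at 9.55, 14.6, 12.9 and 14.2 FPKM in control replicates 1 to 4. In melatonin replicates 1 to 4 it was at 11.8, 12.1, 13.4 and 10.99 FPKM, all inside the control range. The log2 fold change was -0.07 ± 0.12 (SE, 95% interval -0.35 to 0.21; limma adjusted p = 0.793). It was -0.19 without control replicate 1, the library with the lowest Mos value (limma unadjusted p = 0.0365, adjusted p = 0.251). It was -0.0031 without control replicate 2, -0.02 without control replicate 4 and -0.03 without melatonin replicate 4, and -0.11 without melatonin replicate 3.

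**Figure D3:**
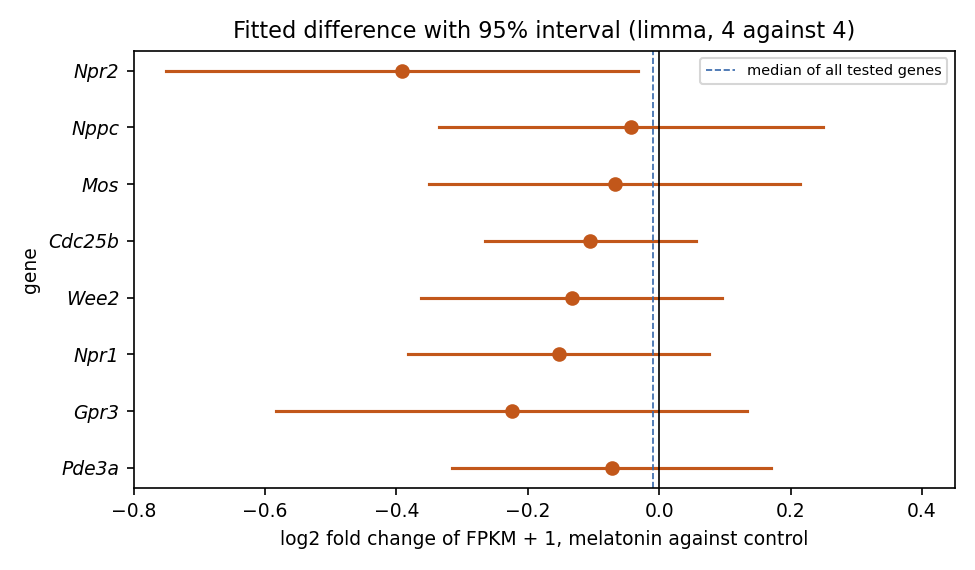
Fitted log2 fold change (FPKM + 1, melatonin against control) of the 8 tested members with the 95% interval from limma. All 8 points lie below 0 and only the interval of Npr2 (-0.75 to -0.03) does not cross 0.

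Gpr3, Pde3a, Wee2 and Mos varied with the oocyte marker sum of the libraries. All 4 were lowest among the controls in control replicate 1 and lowest among the melatonin libraries in melatonin replicate 4. These were also the libraries with the lowest oocyte marker sums of their groups (467 and 457 FPKM). Gdf9, an oocyte growth factor gene that is itself part of this sum, was lowest in the same libraries (84.7 and 77.6 FPKM). Control replicate 2 had the highest marker sum, 727 FPKM, and the highest values of Gpr3, Pde3a and Mos. The spread over the 8 libraries, as a coefficient of variation, became smaller when each gene was divided by the oocyte marker sum. It went from 14.6% to 5.6% for Pde3a, from 13.6% to 7.97% for Mos, from 12.2% to 8.42% for Wee2 and from 21.8% to 13.4% for Gpr3. For the other 5 members it became larger, for example from 8.5% to 13.9% for Cdc25b and from 13.1% to 24.5% for Nppc.

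Nppc did not share this order. Among the controls it was highest in replicates 1 (59.98 FPKM) and 3 (59.2 FPKM), whose oocyte marker sums were 467 and 604 FPKM, and lowest in replicate 2, where the sum was highest. Among the melatonin libraries Nppc was lowest in replicate 1, with a sum of 582 FPKM, and differed little between replicates 2, 3 and 4 (53.3 to 55.7 FPKM), whose sums were 550, 588 and 457 FPKM.

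Relative to the oocyte marker sum, Pde3a, Wee2 and Mos were close in mean between the groups. Gpr3 was lower in mean with melatonin (0.539% in control and 0.475% in melatonin libraries). Pde3a was at 0.222% ± 0.010 of the oocyte marker sum in control and 0.220% ± 0.016 in melatonin libraries. For Wee2 these shares were 1.04% ± 0.12 and 0.998% ± 0.037, and for Mos 2.17% ± 0.21 and 2.23% ± 0.16 (SD, n = 4 each). Gpr3 was at 0.510% to 0.561% in the control libraries and at 0.544%, 0.529%, 0.473% and 0.353% in melatonin replicates 1 to 4. Melatonin replicates 3 and 4 were therefore below all controls in this ratio, and replicates 1 and 2 were not. With the marker sum as a covariate in limma, the log2 fold changes were -0.12 for Gpr3, -0.01 for Pde3a, -0.07 for Wee2 and 0.02 for Mos (adjusted p from 0.589 to 0.952, with adjusted p of these 4 genes from 0.251 to 0.992 over all alternatives). Npr2 was at -0.43 in that fit (limma adjusted p = 0.268, in a range of 0.166 to 0.444 over 18 alternatives).

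**Figure D4:**
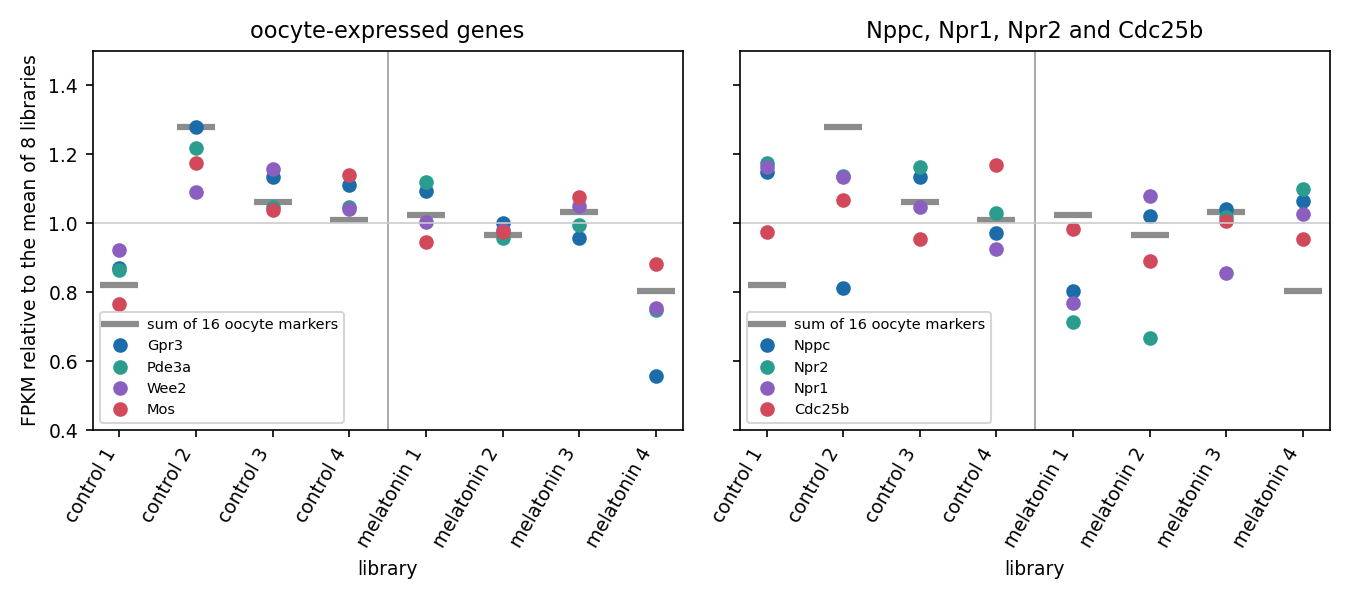
FPKM of 8 members in each library relative to the gene's mean over the 8 libraries, with the sum of 16 oocyte markers as grey dashes. Gpr3, Pde3a, Wee2 and Mos (left) are low with the dashes in control 1 and melatonin 4, while Npr2 (right) is low in melatonin 1 and 2, where the dashes are near 1.

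The genes whose values most resembled each member over the 8 libraries were sought among the 8855 genes that averaged 5 FPKM or more. Pearson's r of log2(FPKM + 1) is given as a description with no test, since the 8 points share depth and cell content. Pde3a was most like Oosp1 (r = 0.98), a secreted oocyte protein gene that is also among the oocyte markers, and then Tent5c (0.972). Mos was most like Zfp57 (0.98) and Ybx2 (0.973), an RNA-binding protein gene of germ cells. For Gpr3 the nearest were Tbc1d14 (0.969) and the oocyte growth factor gene Bmp15 (0.963), which is also among the oocyte markers. Wee2 was nearest to Mis12 (0.971) and Ldhb (0.963). Nearest to Npr2 were Xxylt1 (0.964) and Opa3 (0.958), nearest to Nppc were Npc2 (0.964) and Ppdpf (0.962), and nearest to Npr1 were Mtfr1l (0.964) and Nthl1 (0.956). Cdc25b was nearest to the long noncoding RNA gene Gm26532 (0.963) and to Pcnt (0.958). With group means subtracted first, r of these 16 pairs stayed between 0.935 and 0.98.

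Among 111 other genes of the pathway, 85 were tested and none passed the threshold (limma, adjusted p under 0.05). Of the 85, 60 had a negative log2 fold change and 25 a positive one, against 52.5% negative among all tested genes. Genes of a list can vary together over the libraries, so their signs are not separate observations. At an unadjusted p under 0.05, 16 were lower and 6 higher with melatonin, against 9.74% lower and 9.4% higher of all tested genes. That background was less even among more abundant genes. Of the 8855 genes that averaged at least 5 FPKM, 1217 were lower and 789 higher at that level (limma). The groups did not overlap in 8 lower and 3 higher genes, where 5.94% and 5.79% of all tested genes did so.

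In the cyclic GMP list 10 of 18 genes were tested, with 6 negative and 4 positive log2 fold changes (median -0.02). Impdh1 and Impdh2, the enzymes that supply guanine nucleotides for cyclic GMP, were both lower without overlap. Impdh1 was at 27.0, 25.7, 30.5 and 24.9 FPKM in control and 19.0, 20.0, 22.9 and 23.7 FPKM in melatonin replicates 1 to 4 (log2 fold change -0.32 ± 0.09 SE; limma adjusted p = 0.147). Impdh2 was at 29.5 ± 1.64 and 25.5 ± 1.14 FPKM (limma adjusted p = 0.146). Pde5a, a cyclic GMP phosphodiesterase, was higher without overlap, at 1.66 ± 0.11 and 2.20 ± 0.15 FPKM (SD, n = 4 each; limma adjusted p = 0.148). The unadjusted p of these 3 genes lay between 0.00522 and 0.00681, and none passed.

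The channel and transport list had 6 of 7 genes tested, 4 of them negative (median -0.09). Abcc5, a membrane transporter that can export cyclic nucleotides, was at 21.98, 22.3, 20.1 and 23.3 FPKM in control and 29.3, 27.7, 25.9 and 27.8 FPKM in melatonin replicates 1 to 4. All 4 melatonin values were higher than every control value, with a log2 fold change of 0.32 ± 0.06 (SE; limma unadjusted p = 0.000423, adjusted p = 0.12). Gja1, the main gap junction gene of granulosa cells, was at 631 ± 26.2 and 581 ± 21.9 FPKM, and Panx1, a channel gene, at 7.84 ± 0.51 and 7.30 ± 0.89 FPKM (SD, n = 4 each), both with overlap.

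Of the other cyclic AMP genes 21 of 30 were tested, 14 negative and 7 positive (median -0.09). Adcy3, an adenylyl cyclase gene of the oocyte, was at 6.02, 6.97, 7.59 and 6.13 FPKM in control and 5.36, 5.71, 5.11 and 4.90 FPKM in melatonin replicates 1 to 4. These values are from whole follicles and cannot be assigned to the oocyte alone. Every melatonin value was below every control value (log2 fold change -0.29 ± 0.08 SE; limma adjusted p = 0.148). Of the phosphodiesterase genes, Pde8a was at 14.9 ± 1.07 and 13.1 ± 0.49 FPKM without overlap (limma adjusted p = 0.176), and Pde7a at 8.11 ± 0.66 and 9.17 ± 0.44 FPKM with overlap (SD, n = 4 each; limma adjusted p = 0.234).

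For CDK1 control beyond the members, 23 of 24 genes were tested, with 19 negative and 4 positive (median -0.12). The catalytic phosphatase subunit gene Ppp2ca was at 23.99 ± 1.68 and 20.4 ± 1.02 FPKM, and Ywhae, a 14-3-3 protein gene, at 186 ± 4.98 and 168 ± 3.84 FPKM. Neither gene's groups overlapped (SD, n = 4 each; limma adjusted p = 0.147 and 0.16). Fzr1, an activator of the anaphase-promoting complex that keeps cyclin B low in arrested oocytes, was at 23.5 ± 1.20 and 20.5 ± 1.19 FPKM with overlap (limma adjusted p = 0.158). In RNA from whole follicles, the values of these CDK1 control genes cannot be assigned to the oocyte or to other cells.

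Downstream of Mos, 15 of 16 genes of the MAP kinase and maternal translation list were tested, with 12 negative and 3 positive (median -0.08). Map2k1, the kinase that MOS phosphorylates, was at 44.4, 38.5, 43.1 and 40.1 FPKM in control and 23.9, 27.8, 28.0 and 37.2 FPKM in melatonin replicates 1 to 4. It is also expressed outside the oocyte. Its groups did not overlap, though melatonin replicate 4 was close to the lowest control (log2 fold change -0.51 ± 0.12 SE; limma unadjusted p = 0.00256, adjusted p = 0.128). Cnot7, a subunit of the deadenylase that shortens poly(A) tails, was higher without overlap, at 26.3 ± 1.67 and 31.2 ± 2.20 FPKM (SD, n = 4 each; limma adjusted p = 0.148). Rps6ka1, a kinase gene downstream of MAP kinase, was at 5.78 ± 0.84 and 4.74 ± 0.55 FPKM (limma adjusted p = 0.259).

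Genes that end the arrest after luteinizing hormone were mostly below the filter, with 3 of 9 tested (1 negative, 2 positive, median 0.12). Lhcgr, the receptor gene of that hormone, was at 3.66 ± 1.04 and 2.19 ± 1.32 FPKM (limma adjusted p = 0.26). Egfr was at 12.4 ± 1.88 and 13.7 ± 1.63 FPKM, and its ligand gene Btc at 1.03 ± 0.18 and 1.20 ± 0.15 FPKM (SD, n = 4 each), with overlap in all 3 genes. Areg, Ereg, Ptgs2, Ptx3, Has2 and Tnfaip6 did not reach a mean of 1 FPKM.

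Of 7 genes that regulate Nppc or Npr2 in the follicle, 4 were negative and 3 positive (median -0.12). Esr2, the estrogen receptor gene of granulosa cells, was at 187, 177, 135 and 224 FPKM in control and 245, 240, 208 and 225 FPKM in melatonin replicates 1 to 4 (log2 fold change 0.36 ± 0.14 SE; limma adjusted p = 0.221). Fshr, the receptor gene for follicle-stimulating hormone, was at 59.2 ± 8.43 and 43.6 ± 6.53 FPKM. The aromatase gene Cyp19a1 was at 11.4 ± 8.29 and 4.31 ± 3.30 FPKM, with 22.99 FPKM in control replicate 3 (SD, n = 4 each; limma adjusted p = 0.148 and 0.256).

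**Figure D5:**
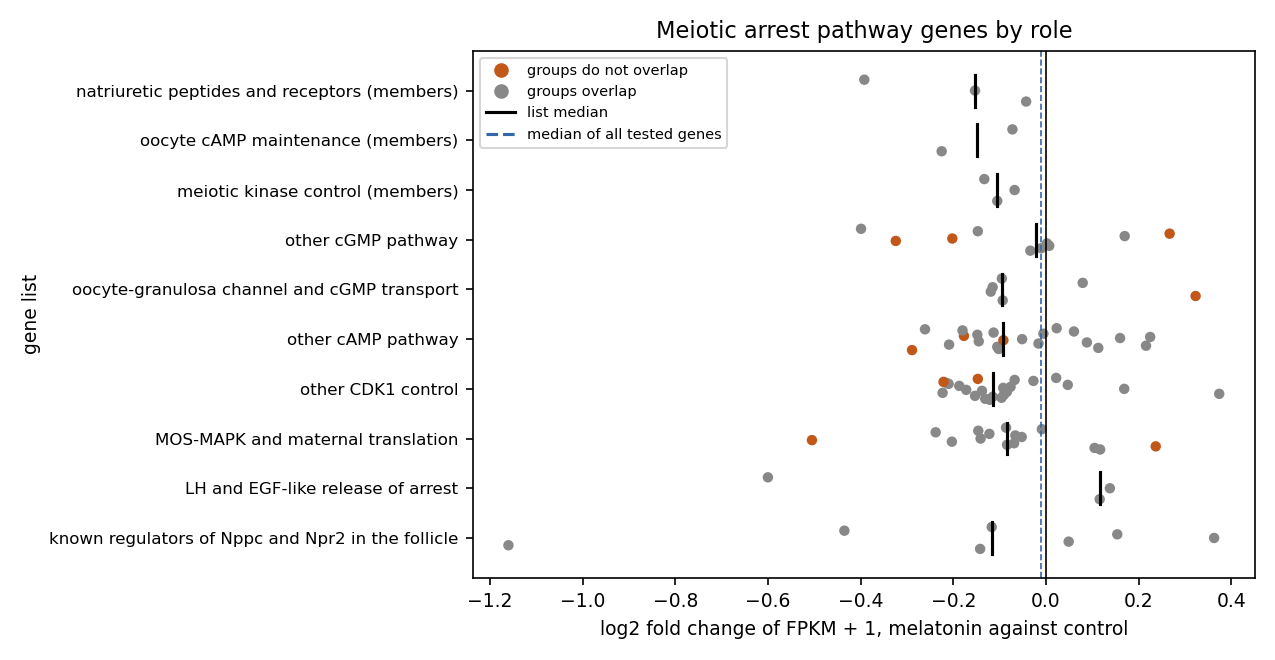
Log2 fold change (FPKM + 1, melatonin against control) of each tested gene of the pathway by list, with the list median as a black bar and the median of all tested genes (-0.01) as a dashed line. Orange points, whose groups do not overlap, are found in 5 of the 10 lists, and none is a member.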

How the data were processed

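Per the labels' protocols, total RNA was isolated with Trizol and sequenced after a NEBNext Ultra library preparation. The submitters' processing notes name HISAT2 2.0.5 and the mm10 build. How fragments were counted, with which annotation and whether by strand, is not given in the sources used here. Each library has 1 FPKM value per gene, deposited by the authors and named so per the file headers. The series table differed from the sample files in 0 values.

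The members, lists and tests were chosen with earlier results of these data known. Genes averaging at least 1 FPKM were fitted with limma 3.58.1 (R 4.3.3, intensity trend, group as the single term, all 8 libraries) on log2(FPKM + 1), with Benjamini-Hochberg adjustment over 14738 genes and a threshold of 0.05. Fold changes on this scale understate the change of low genes. Fragments were recovered from FPKM and GENCODE M21 exon lengths (54495 identifiers matched), where at least 98.7% of values under 30 fragments were whole within 0.05. Genes named by rule are all members, the 3 with the smallest p in each list, the 2 most like each tested member, and Gdf9 as an oocyte reference. Genes that overlap a member, cell type markers, Nppa, Nppb and Gpr12 are named outside this rule, after their values were seen. Alternatives were other scalings, filters, pseudocount, limma-voom, array weights, covariates, GC content and length correction, a replicate block and leaving out each library. Tables and plots were made with Python 3.11.15 and matplotlib 3.10.9.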

Additional observations from a re-analysis of the deposited data

How the results depend on the processing

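No member passed the threshold under any of the 18 alternatives. Over all genes the count of calls was 1 without a filter on low values (Mir6947) and 0 to 1 when 1 library was left out (C1rb without control replicate 1, both genes named after their values were seen), and 0 under the other alternatives. The count at an unadjusted p under 0.05 was 2821, and 2740 with limma-voom on recovered fragment counts, which also called 0 genes. Npr2, Npr1, Gpr3, Pde3a, Wee2 and Cdc25b were negative under every alternative that tested them. Nppc was positive after quantile normalization (0.033), without control replicate 1 (0.0192), without control replicate 3 (0.0129) and without melatonin replicate 1 (0.0488), and its values with 1 library left out ran from -0.143 to 0.0488. Mos was positive with the oocyte marker sum as a covariate (0.0186). The cause was not tested. The groups of Npr2 did not overlap without control replicate 4 or without melatonin replicate 4, nor did those of Gpr3 without control replicate 1. With the replicate block Npr2 stayed at -0.39 (limma adjusted p = 0.265) and 0 genes were called, with 2776 at an unadjusted p under 0.05. Deviations of same-numbered libraries correlated at 0.001, -0.103, 0.151 and 0.038. The labels do not say whether same-numbered libraries were paired, and these correlations cannot decide it. Of the 4 control libraries, 3 (replicates 1, 2 and 4) correlated more with a melatonin library of another number than with their own. Npr3 rested on 3 to 29 fragments per library. Npr1, Gpr3 and Pde3a were not tested with the filter of 5 FPKM, and Npr3 was tested only without a filter.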
